A study of Homo sapiens with 5 samples.

Results

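The genes described here build the extracellular matrix: collagens, laminins and their linkers, matricellular proteins, microfibril proteins, and the enzymes and chaperone that process collagen. They were 47 genes taken by the gene symbol that the platform annotation of an Illumina human BeadChip gives to each probe. Of these, 46 had a probe, and 35 had a probe that was detected (detection p under 0.01) on at least 1 of 5 arrays. The 46 genes had 74 probes, of which 49 were detected. On the whole array 12842 of 20043 genes passed the same limit. LAMA3, the laminin chain of epithelial anchoring complexes, was not analysed here.

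The arrays came from 2 established cell lines of human pancreatic adenocarcinoma, labelled Miapaca and BXPC3, and the study used siRNA against LYNX1, a membrane-anchored protein that binds nicotinic acetylcholine receptors. Miapaca cells were grown in DMEM and received a control siRNA, an siRNA to the LYNX1 open reading frame (ORF) or an siRNA to its 3′ untranslated region (3UTR), at a dose given as 60 pM, with 4 µl of lipofectamine RNAiMAX. BXPC3 cells were grown in RPMI and received the control or the ORF siRNA at 200 nM with 14 µl of Xtreme gene9. Cells met the siRNA 24 h after seeding and were harvested 72 h later. Below, bead values for Miapaca are listed in the order control, ORF and 3UTR, and those for BXPC3 in the order control and ORF. Each of the 5 groups held 1 array, so a single siRNA comparison has no error estimate. The p-values and standard errors (SE) over the arrays speak for these cultures only. They combine the spread of each gene between the arrays with the spread of all genes tested.

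Mean bead intensity was 343 to 463 per array, highest on the Miapaca control array, and 16622 to 18205 probes were detected. LYNX1 was not detected on any array, so its knockdown could not be checked here. Of 8 epithelial markers, the keratins KRT8, KRT18 and KRT19 were detected on all 5 arrays, CDH1 (E-cadherin), EPCAM, KRT7 and ESRP1 in BXPC3 alone, and CLDN4 on 1 array of each line. Of 6 mesenchymal markers 3 were detected. VIM (vimentin) stood at a bead intensity of 16504 to 19424 in Miapaca and 154 and 199 in BXPC3, while SNAI2 and CDH2 (N-cadherin) were detected in BXPC3 alone. Of 7 fibroblast markers, ACTA2 alone was detected. PDGFRA, PDGFRB, DCN and LUM were not, and the summed normalized intensity of the list was 225 to 283 on the Miapaca arrays and 201 and 205 on the BXPC3 arrays.

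Collagens are triple helices of 3 chains. Fibrillar collagens give tissues tensile strength, type IV collagen and laminins form the sheet-like basement membrane under epithelia, and type VI collagen forms beaded filaments in the interstitium. Before secretion, collagen chains are hydroxylated on proline and lysine and folded with the help of a chaperone. In pancreatic cancer most fibrillar collagen is laid down by stromal fibroblasts, and the carcinoma cells add their own basement membrane components.

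Between the lines the matrix genes fell into opposite sets. BXPC3 arrays were higher in COL4A5 and COL4A6, COL7A1, COL8A1, the laminin chains LAMA5 and LAMB1, thrombospondin (THBS1) and the lysyl hydroxylase PLOD2. Miapaca arrays were higher in COL1A2, COL5A2, COL6A1, COL6A3, COL4A1 and COL18A1. The question addressed was which matrix genes differ between the lines, and it was tested with a limma fit over the 5 arrays that held cell line and LYNX1 siRNA as terms. With a Benjamini-Hochberg adjusted p under 0.05 and a difference of 2-fold or more, 15 members were called higher in BXPC3, 6 were called higher in Miapaca and 14 detected members were not called. Over all 12842 genes tested, 12.1% were called higher in BXPC3 and 11% higher in Miapaca, 23.1% in all. A member detected in 1 line alone entered the test through that line, so the member counts are not set against these shares. The p-value of such a member was taken against background values in the other line and is not independent of that entry. Culture medium, siRNA dose and transfection reagent also differed between the lines and cannot be told apart from the line.

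**Figure D1:**
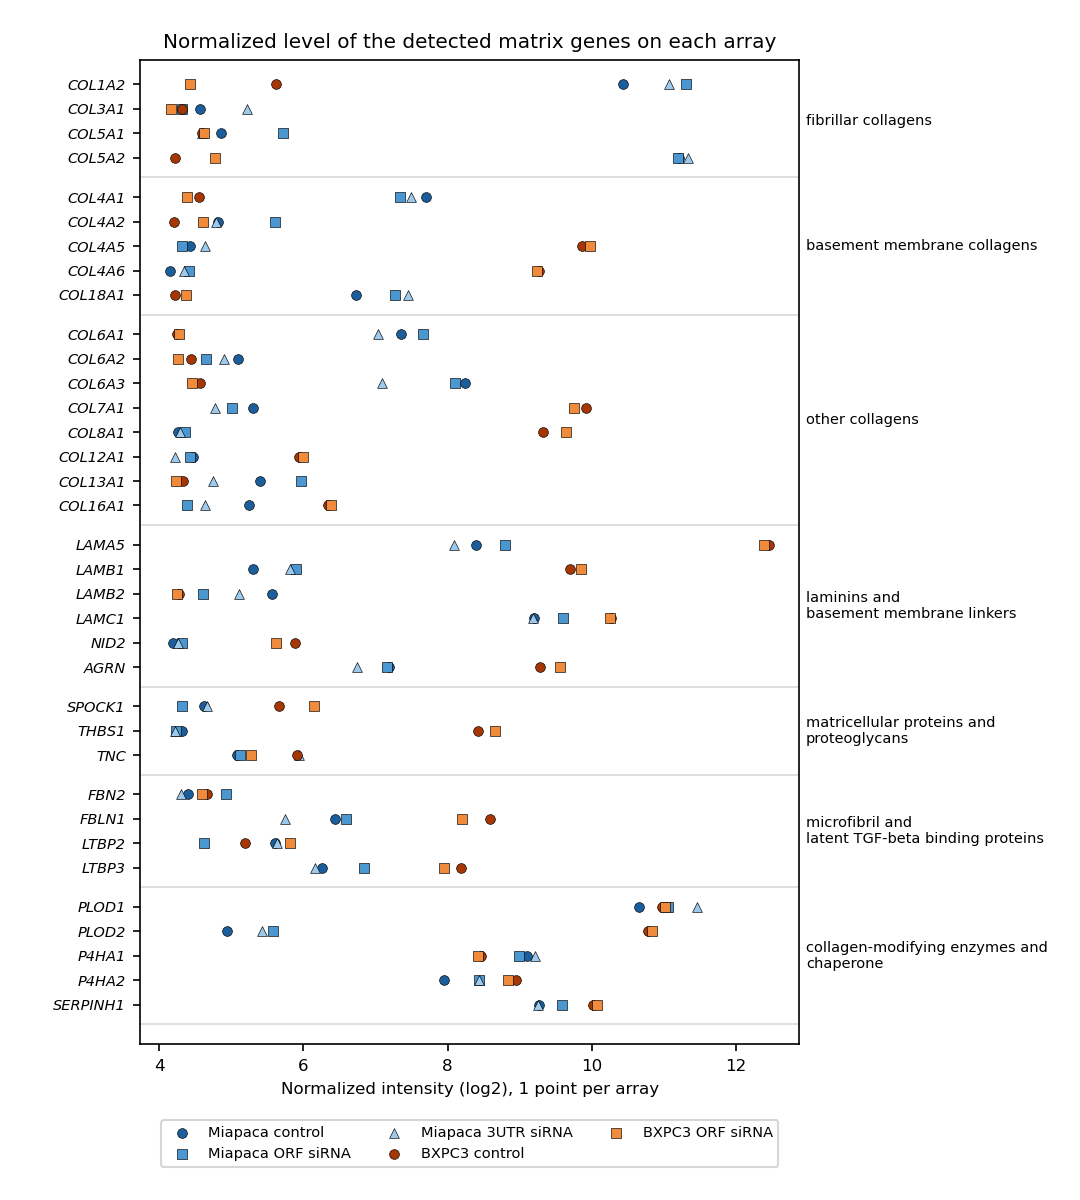
Normalized intensity on the log2 scale (x axis) of the 35 detected genes (rows, grouped by role), with 1 point per array (blue for the 3 Miapaca arrays, orange and red-brown for the 2 BXPC3 arrays, circles for controls, squares for ORF siRNA, triangles for 3UTR siRNA). COL1A2 and COL5A2 are far to the right on the Miapaca arrays alone, and COL4A5, COL4A6, COL7A1 and COL8A1 on the BXPC3 arrays alone.

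Among fibrillar collagens, the chains found in Miapaca were COL1A2, the second chain of type I collagen, and COL5A2, a chain of the type V collagen that sits inside type I fibrils. The COL5A2 probe read 3391, 2248 and 2381 in Miapaca, and 85.8 and 107 in BXPC3. The lines did not overlap, and neither BXPC3 array passed detection. COL5A2 was at least 101-fold higher in Miapaca, where a bound sets each undetected array at the higher of its own value and its lowest detected signal (fitted log2 difference of BXPC3 from Miapaca −6.71 ± 0.26, SE over 5 arrays; limma adjusted p = 5.245e-06). This and the other bounds and folds hold for the main processing only. With the authors' normalized values the fitted log2 difference of COL5A2 was −4.74.

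COL1A2 read 1997, 2413 and 1962 in Miapaca, and 130 and 98.1 in BXPC3. Its fitted log2 difference was −5.92 ± 0.43 (limma adjusted p = 7.84e-05), and a second probe gave −5.19. The gene was therefore bright on all Miapaca arrays by both of its probes. COL1A1, the partner chain that makes up most of type I collagen, was not detected on any array by its only probe, which read 88.7 to 104. COL3A1 (type III collagen) and COL5A1 (the partner of COL5A2) passed detection on 1 Miapaca array each, at 110 with the 3UTR siRNA and 121 with the ORF siRNA. Neither was called between the lines. COL3A1 stood at −0.46 ± 0.33 (log2 difference, SE) and COL5A1 at −0.42 ± 0.36.

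By detection the type IV collagen genes divided by gene pair, though COL4A2 was close to the limit and was not called between the lines. COL4A1 and COL4A2, the chains of the basement membrane found in most tissues, lie head to head on chromosome 13. COL4A5 and COL4A6, whose chains join in some epithelial basement membranes, lie head to head on chromosome X. In RefSeq (GRCh38.p14) the starts of COL4A1 and COL4A2 are 127 bases apart, and those of COL4A5 and COL4A6 are 380 bases apart. Short stretches between the starts are shown because each pair shares this DNA and its members were detected in the same line. All are plus-strand sequence, written 5′ to 3′, with matches to CCAAT (either strand) or GGGCGG (either strand) in capitals.
COL4A1-COL4A2, chr13:110307167-110307196, CCAAT: gggccgagctccCCAATttgttggcgctgc
COL4A1-COL4A2, chr13:110307207-110307236, GGGCGG: ccggcggtgcgcGGGCGGcgcctcaaaggg
COL4A6-COL4A5, chrX:108439588-108439617, CCAAT in both orientations: acaCCAATgagATTGGaactgagcctagaa

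These letters are common. Over 35116 promoter windows of RefSeq genes, each of 300 bases around a start, 34.6% held CCAAT and 45.0% held GGGCGG on either strand. Of 47 windows that matched 38 of the members by symbol, 13 held CCAAT and 32 held GGGCGG. The matches describe the sequence and show nothing about binding, and between COL4A6 and COL4A5 only the part nearest the COL4A5 start was searched. The array annotation names no genome build, so probes were not placed on the genome.

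COL4A5 read 102, 89.6 and 98.7 in Miapaca, none of them detected, and 947 and 1003 in BXPC3. COL4A6 read 80.1, 93.1 and 90.8 in Miapaca, and 664 and 644 on the BXPC3 arrays. Both genes were thus at background in Miapaca and bright on both BXPC3 arrays. The bounds were at least 41.4-fold for COL4A5 and at least 26.5-fold for COL4A6 (limma adjusted p = 1.02e-05 and 1.32e-05). A second COL4A5 probe gave a smaller log2 difference of 2.33, also with both BXPC3 arrays detected. A second COL4A6 probe, annotated to another transcript, was detected on 1 array only and gave 0.42.

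The COL4A1 probe read 369, 212 and 221 in Miapaca, and 101 and 96.2 in BXPC3. It was detected on all 3 Miapaca arrays and on neither BXPC3 array, which gave a difference of at least 7.95-fold (limma adjusted p = 1.12e-04). COL4A2 was detected on the Miapaca ORF and 3UTR arrays only, close to the limit at 118 and 102, and was not called (log2 difference −0.60 ± 0.31; limma adjusted p = 0.2003). Its 95% confidence interval ran from −1.32 to 0.13. COL18A1, whose C-terminal fragment is endostatin, is a basement membrane collagen that carries heparan sulfate. It read 225, 205 and 217 in Miapaca and 85.3 and 95.7 in BXPC3, at least 6.49-fold higher in Miapaca (limma adjusted p = 2.57e-04). A second COL18A1 probe was detected on no array and gave a log2 difference of −0.14.

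**Figure D2:**
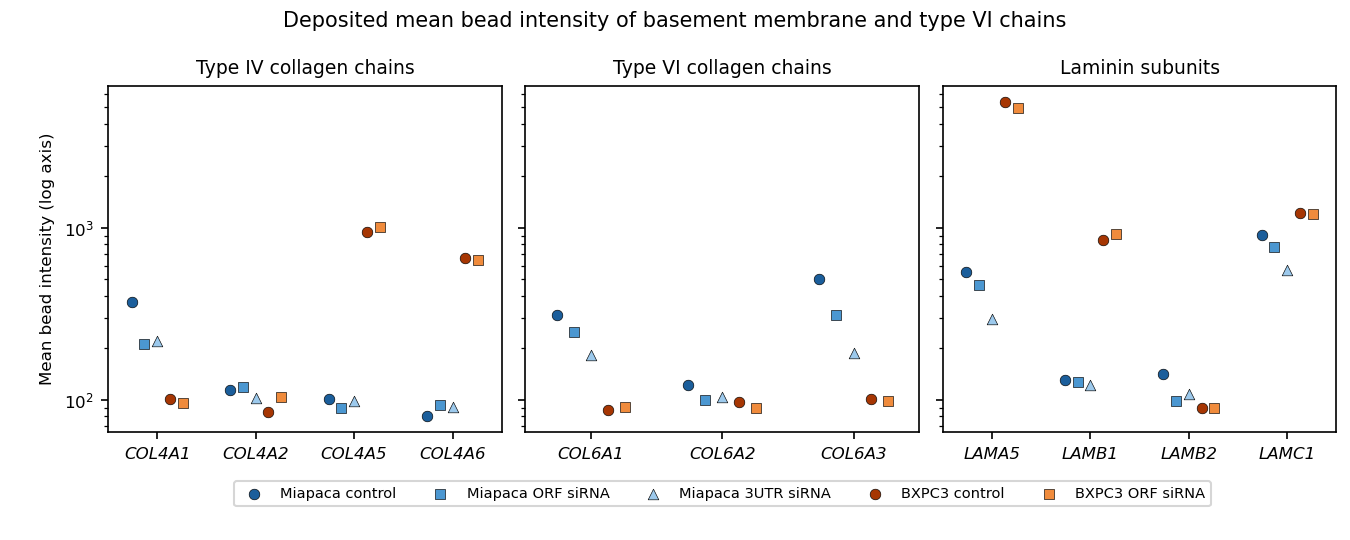
Deposited mean bead intensity (y axis, log scale) of type IV collagen chains, type VI collagen chains and laminin subunits, with 1 point per array for 3 Miapaca and 2 BXPC3 arrays. COL4A5 and COL4A6 reach 644 to 1003 on the BXPC3 arrays and stay under 102 on the Miapaca arrays, COL6A1 and COL6A3 show the opposite order, and LAMA5 and LAMB1 are higher in BXPC3.

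Type VI collagen is assembled from 3 different chains. COL6A1 read 309, 247 and 181 in Miapaca and 87.6 and 91.3 in BXPC3, at least 7.46-fold higher in Miapaca (limma adjusted p = 2.41e-04). COL6A3, the longest of these chains, read 504, 310 and 186 in Miapaca and 101 and 99.0 in BXPC3, at least 9.75-fold higher (limma adjusted p = 4.91e-04). Its other probe gave a log2 difference of −2.44 beside −3.30 for the brighter probe, as differences of line means. COL6A2 was close to the detection limit in Miapaca, with 2 of 3 arrays detected at 123 and 104, and was not called (log2 difference −0.57 ± 0.25; limma adjusted p = 0.131). No type VI gene was detected on a BXPC3 array.

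Outside type IV, the collagens called higher in BXPC3 were COL7A1, COL8A1, COL12A1 and COL16A1. COL7A1 forms the anchoring fibrils that fasten a basement membrane to the tissue below it. It read 130, 106 and 101 in Miapaca and 975 and 872 on the BXPC3 arrays. In Miapaca it was detected on the control array only, and the fit against these values gave a 27.0-fold difference (limma adjusted p = 1.76e-05). COL8A1, a short-chain network collagen, read 88.3 to 92.4 on the Miapaca arrays and 681 and 811 on the BXPC3 arrays, at least 30.9-fold higher (limma adjusted p = 1.03e-05). A second COL8A1 probe gave a log2 difference of 3.11. COL12A1 and COL16A1, which associate with the surface of fibrils, were dimmer, at 144 to 146 and 164 to 165 on the BXPC3 arrays, and COL16A1 was also detected on the Miapaca control array at 128. COL12A1 was not detected in Miapaca and was at least 2.71-fold higher in BXPC3 (limma adjusted p = 0.00311). A second COL12A1 probe was detected on no array and gave a log2 difference of −0.29. The fitted log2 difference of COL16A1, 1.54 ± 0.28, was taken against 2 of 3 Miapaca arrays without detection (limma adjusted p = 0.00678). COL13A1, a transmembrane collagen, was detected on the Miapaca control and ORF arrays at 134 and 129, and its log2 difference of −1.10 ± 0.38 was not called (limma adjusted p = 0.0699).

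Laminins are cross-shaped trimers of an α, a β and a γ chain, and LAMA5, LAMB1 and LAMC1 together make one that is widespread in epithelial basement membranes. LAMA5 read 552, 463 and 296 in Miapaca and 5366 and 4976 in BXPC3, 15.95-fold higher in BXPC3 (limma adjusted p = 8.12e-05). LAMB1 read 130, 127 and 123 in Miapaca and 852 and 924 in BXPC3, a fitted log2 difference of 4.17 ± 0.25 (limma adjusted p = 3.21e-05), and its second probe gave a log2 difference of 3.22. LAMC1 read 902, 774 and 567 in Miapaca and 1219 and 1197 in BXPC3. Its log2 difference of 0.95 ± 0.26 had an adjusted p of 0.0332 by limma but stayed short of 2-fold. All 3 chains therefore lay higher on both BXPC3 arrays than on any Miapaca array. LAMB2, an alternative β chain, went the other way at −0.90 ± 0.29 and was not called (limma adjusted p = 0.0594).

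Of the basement membrane linkers, AGRN and NID2 were called higher in BXPC3. AGRN (agrin, a heparan sulfate proteoglycan) read 283, 194 and 163 in Miapaca and 669 and 773 in BXPC3, a log2 difference of 2.39 ± 0.27 (limma adjusted p = 7.66e-04). A second AGRN probe was detected on no array and gave 0.05. NID2 (nidogen) was detected in BXPC3 alone, at 141 and 130, at least 2.32-fold higher (limma adjusted p = 0.00440). HSPG2 (perlecan), NID1 and LAMA4 were not detected on any array, the first at 79.6 to 90.1.

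Among matricellular proteins, which modulate how cells adhere rather than bear load, THBS1 differed most. It read 96.1, 84.7 and 84.1 in Miapaca, none detected, and 414 and 461 in BXPC3, at least 16.1-fold higher (limma adjusted p = 2.48e-05). SPOCK1, a testican proteoglycan, was detected in BXPC3 alone at 132 and 152 and was at least 2.47-fold higher (limma adjusted p = 0.00905). TNC (tenascin) was detected on all 5 arrays at 108 to 142 and was not called (log2 difference 0.21 ± 0.37). SPARC, BGN (biglycan) and VCAN (versican) were not detected on any array.

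Microfibrils carry elastin and hold latent TGF-beta through its binding proteins. FBLN1 (fibulin, found in basement membranes and elastic fibres) read 196, 157 and 121 in Miapaca and 453 and 363 in BXPC3, 4.24-fold higher (limma adjusted p = 0.00280). Of its 4 detected probes, those with the brightest signal gave line differences of 2.14 and 1.87, and the 2 dimmer ones 0.998 and −0.26 on the log2 scale. LTBP3, a latent TGF-beta binding protein, read 181, 171 and 135 in Miapaca and 368 and 320 in BXPC3, 3.17-fold higher (limma adjusted p = 0.00636). Its other probes were detected on no array and gave log2 differences of −0.02, −0.07 and 0.02. LTBP2 and FBN2 (fibrillin) were not called, at log2 differences of 0.21 ± 0.40 and 0.10 ± 0.29. FBN1 and LTBP1 were not detected on any array.

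Of the 5 detected members that modify collagen, PLOD2 was the only one called. This lysyl hydroxylase acts on the telopeptides at the chain ends, which sets the type of cross-link. It read 118, 118 and 114 in Miapaca and 1700 and 1738 on the BXPC3 arrays, 47.0-fold higher in BXPC3 (limma adjusted p = 1.02e-05). Its other detected probes gave smaller log2 differences of 2.49 and 0.95. PLOD1, which hydroxylates helical lysines, read 2017 to 2575 in Miapaca and 1916 and 1926 in BXPC3. Its log2 difference was −0.0019 ± 0.28, with a 95% confidence interval from −0.65 to 0.65. The prolyl hydroxylase subunits P4HA1 and P4HA2 stood at −0.67 ± 0.24 and 0.66 ± 0.26, and SERPINH1, the collagen chaperone HSP47, at 0.69 ± 0.25, none of them called. The lysyl oxidases LOX and LOXL2, which form the cross-links outside the cell, were not detected on any array.

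**Figure D3:**
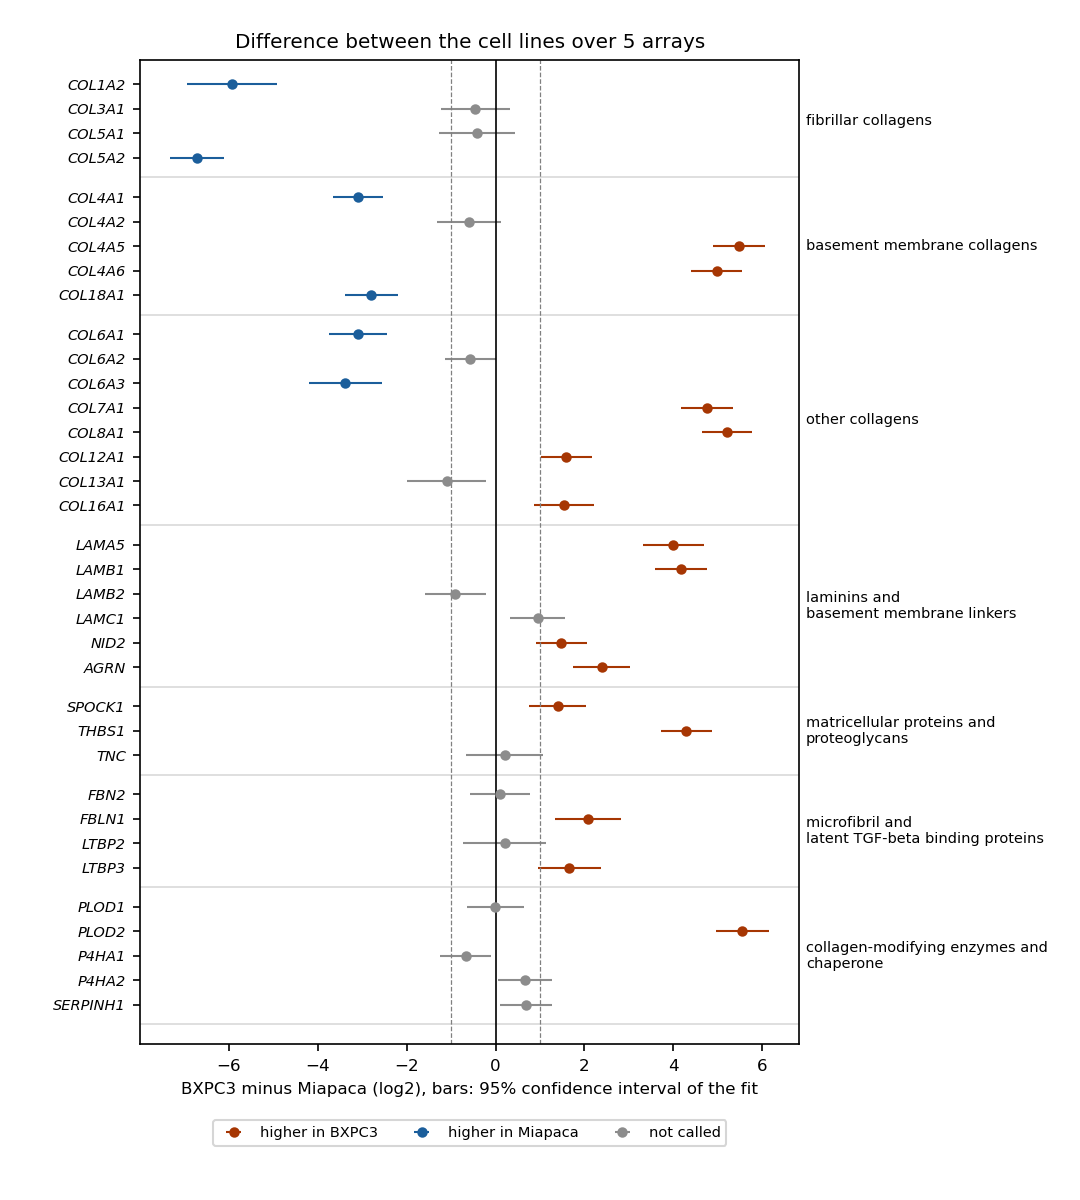
Fitted difference of BXPC3 from Miapaca on the log2 scale (x axis) for the 35 detected genes (rows), with bars for the 95% confidence interval over 5 arrays and dashed lines at a 2-fold difference. The 15 genes called higher in BXPC3 and the 6 called higher in Miapaca are red-brown and blue, and the 14 others are grey.

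The fit left 2 residual degrees of freedom, so single arrays weighed on the calls. The spread of all genes tested added 5.33 prior degrees of freedom. Fits that each leave out 1 array share the other arrays and are not separate checks. Leaving out either control array gave the same line difference, such as a log2 difference of 2.61 for AGRN. Without the BXPC3 ORF array 8 members were called higher in BXPC3 and 3 in Miapaca, without the BXPC3 control array or without the Miapaca control array 9 and 5, without the Miapaca ORF array 16 and 7, and without the Miapaca 3UTR array 15 and 7. COL1A2, COL4A1, COL4A5, COL4A6, COL5A2, COL7A1, COL8A1, LAMA5, LAMB1, PLOD2 and THBS1, 11 members, were called in all 5 of these fits. Without the BXPC3 ORF array the adjusted p (limma) was 0.0576 for COL6A1, 0.0567 for COL18A1 and 0.0936 for AGRN, which were called in the other 4 fits. COL6A3, COL12A1, COL16A1, FBLN1, LTBP3, NID2 and SPOCK1 were not called without the BXPC3 ORF array, without the BXPC3 control array or without the Miapaca control array. Their adjusted p (limma) in these fits was 0.0558 to 0.0653 for COL6A3 and up to 0.258 for SPOCK1, and the direction of each was kept. Of 10 members with more than 1 detected probe, 7 had the same sign between the lines for every detected probe, and FBLN1, P4HA2 and TNC did not.

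Other matrix genes on the array were counted in the same fit. Of 121 listed, 50 were detected, 7 were called higher in BXPC3 and 5 higher in Miapaca. The shares over all 12842 genes tested were 12.1% higher in BXPC3 and 11% higher in Miapaca. Whether the counts of this list differ from these shares was not tested. LAMB3, which pairs with LAMA3 in the laminin of hemidesmosomes, was at least 93.4-fold higher in BXPC3, at 1889 and 2373 beside 88.1 to 104 in Miapaca. EFEMP1 (fibulin 3) was at least 20.1-fold higher, TGFBI 15.3-fold and CCN2 (connective tissue growth factor) 13.1-fold by the fit, all in BXPC3. In Miapaca, P3H3 and FKBP10, a prolyl hydroxylase-family protein and a chaperone that act on collagen in the endoplasmic reticulum, were higher, with log2 differences of BXPC3 from Miapaca of −2.60 and −2.01. SRGN (serglycin) and THBS3 were also called higher in Miapaca, at −1.97 and −1.73. The remaining one, LAMA2, a laminin chain named after its values were seen, read 145, 121 and 179 in Miapaca, and 99.2 and 99.5 in BXPC3 without detection, at least 3.08-fold higher in Miapaca (limma adjusted p = 0.0285).

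With the siRNAs most of the same genes lay within 2-fold of their control array. The ORF siRNA in Miapaca was set against its control array for the 27 members detected on at least 1 of the 2. None was 2-fold away from the control, beside 10.6% of 10899 genes compared (5.07% higher and 5.51% lower). With median scaling 2 members were past 2-fold, and 4 without normalization between arrays. Above the control by any amount lay 17 of 27 members, beside 51.3% of all genes. The members' median log2 difference was 0.32, beside 0.02 over all genes, and it turned to −0.13, beside −0.40 over all genes, when arrays were scaled by their medians. COL1A2 stood at 10.43 on the control array and 11.31 with the ORF siRNA on the normalized log2 scale, a difference of 0.88, and its second probe gave 0.85. COL5A1 at 0.85 and COL4A2 at 0.80 followed, each detected with the siRNA and not on the control array. P4HA2 stood at 0.49, and its other detected probes gave 1.09 and 0.93. PLOD2 stood at 0.64, LAMB1 at 0.60, LTBP3 at 0.59, COL13A1 at 0.57 and COL18A1 at 0.55. The deposited bead values of these last 5 genes were not higher with the siRNA (LAMB1 130 and 127, COL18A1 225 and 205). Their place above the control therefore arose in the processing. The parts of background correction and normalization in it were not tested for these genes. The second LAMB1 probe gave −0.61. LTBP2 and LAMB2 were the lowest members, at −0.99 and −0.97, each detected on the control array and not with the siRNA.

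The 3UTR siRNA in Miapaca was compared for 26 members. COL6A3 alone was past 2-fold, at 8.24 on the control array and 7.09 with the 3UTR siRNA, a log2 difference of −1.15 or 2.22-fold lower. Its second probe gave −0.99. With the ORF siRNA the same probes gave −0.14 and 0.23. The difference fell short of 2-fold, at −0.82 to −0.98, with no background correction, a larger offset or the authors' normalized values, and was −1.79 with median scaling and −1.94 with no normalization between arrays. Over all 10865 genes compared, 8.86% were past 2-fold, 4.22% higher and 4.64% lower. The type VI partner COL6A1 stood at −0.32 and COL6A2 at −0.20. FBLN1 was the next lowest member after COL6A3 at −0.70, detected on both arrays at 196 and 121. Its other detected probes gave −0.84, −0.20 and 0.54. COL7A1, COL13A1 and COL16A1 also lay below the control. Of the arrays compared, each of these genes was detected on the control alone and so entered the comparison through it. TNC was the highest member at 0.86, with 0.48 by its other probe, followed by PLOD1 at 0.80 and COL18A1 at 0.73, where the deposited bead values of COL18A1 were 225 and 217. Both Miapaca comparisons share 1 control array, whose mean bead intensity of 463 was the highest of the series, and its part in these differences was not tested. The median of all 26 members was −0.02, and 11 of them lay above the control, beside 50% of all genes.

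In BXPC3 the ORF siRNA was compared for 24 members, and 12 lay above and 12 below the control, with a median of 0.01, beside 49.3% of all genes above. Past 2-fold was 1 member, beside 1.09% of 11252 genes (0.631% higher and 0.462% lower). It was COL1A2, which passed detection on the BXPC3 control array at 130 and not with the ORF siRNA at 98.1, at least 2.18-fold lower. The same 3 settings gave −0.37 to −0.56. Its second probe was detected on neither BXPC3 array and gave −0.30. The members called higher in BXPC3 between the lines lay between −0.39 for FBLN1 and 0.48 for SPOCK1 on the log2 scale. Among them were COL4A5 at 0.10, COL4A6 at −0.03, COL8A1 at 0.32, LAMA5 at −0.08, AGRN at 0.27, NID2 at −0.26, LTBP3 at −0.24 and PLOD2 at 0.06. LTBP2 was the highest at 0.62, from 116 to 138 in bead intensity, and TNC the lowest after COL1A2 at −0.65.

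**Figure D4:**
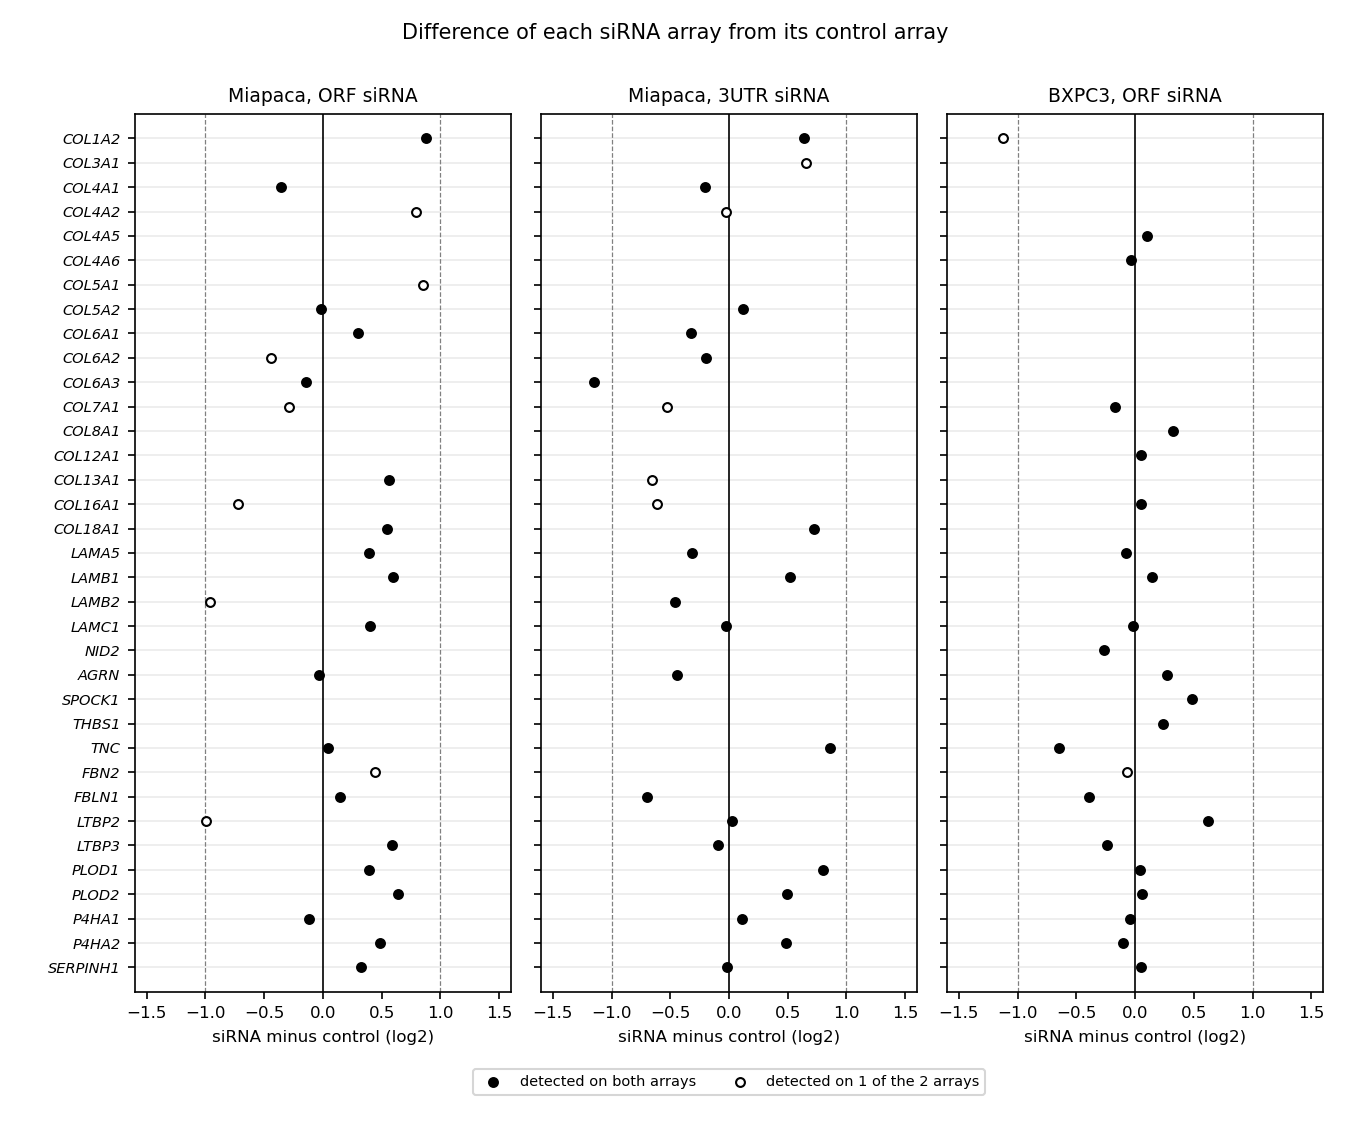
Log2 difference of each siRNA array from its control array (x axis) for the detected genes (rows) in 3 panels, with dashed lines at 2-fold. Filled points were detected on both arrays, and open points on 1 of the 2. COL6A3 with the 3UTR siRNA and COL1A2 in BXPC3 are the points past 2-fold.

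TNC shows how the 3 comparisons can differ for 1 probe, at 0.04 for ORF and 0.86 for 3UTR in Miapaca and −0.65 in BXPC3. This probe was dim, at 108 to 142, and the other detected TNC probe gave 0.29, 0.48 and −0.11. In the fit over 5 arrays no gene was called for the LYNX1 siRNA term by limma, members included. At an unadjusted p under 0.05 there were 547 of 12842 genes and 0 members, whose smallest adjusted p was 0.894. The spread in that term holds the difference between the 2 siRNAs and between the lines.

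Other matrix genes were also counted in the siRNA comparisons. With the ORF siRNA in Miapaca 1 of 33 was past 2-fold, P3H4, a collagen-modifying complex member of the endoplasmic reticulum, at −1.32 on the log2 scale, beside 10.6% of all genes. Below the control lay 14 of the 16 other collagen processing genes, with a median of −0.47, where 51.3% of all genes lay above it. With the 3UTR siRNA in Miapaca 8 genes of this list lay above the control and 8 below, with a median of −0.01. With the ORF siRNA in BXPC3 12 of 19 lay above, with a median of 0.07. Over all other matrix genes, 4 of 34 were past 2-fold with the 3UTR siRNA, beside 8.86% of all genes. All 4 were higher, with LAMA2 at 1.37, THBS3 at 1.15, CCN2 at 1.02 and COL20A1 at 1.012. The value of COL20A1 is a bound. Its probe was detected with the siRNA at 115 and not on the control array at 98.0, so it entered the comparison through the siRNA array. In BXPC3 0 of 41 passed 2-fold, beside 1.09% of all genes.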

How the data were processed

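RNA of 5 cultures was measured on Illumina BeadChips. The authors deposited mean bead intensities not normalized between arrays, and a detection p-value per probe and array, per the file headers. The authors also deposited normalized intensities in the series matrix, made by a method not given in the sources used here. Of 48107 probes, 1 with a missing value was left out. The neqc function of limma (3.58.1, under R 4.3.3) applied normexp background correction (offset 16), then quantile normalization and log2. Tables and plots used pandas 2.3.3, numpy 2.4.6 and matplotlib 3.10.9 in Python 3.11.15. Platform symbols were updated by RefSeq accession (29081 probes) or Entrez identifier (1011), and 17985 probes had no entry. The probe with the highest mean stood for its gene.

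siRNA arrays were compared with the control of their line at 2-fold, for genes detected on at least 1 of the 2 arrays. The lines were compared with lmFit and eBayes over the genes detected on at least 1 array. The fit was also run on simulated data with normal noise, which did not mimic genes at background in 1 line. Every member may be named, with at most 4 other matrix genes in each direction. The members and lists were chosen with earlier results of these data known. Alternatives changed the normalization, background, offset, source, detection limit, probe rule and arrays. The number of arrays limits the precision.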

Additional observations from a re-analysis of the deposited data

Results flagged for a closer look

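COL1A2 lay on opposite sides of its control array with the ORF siRNA in the 2 lines, at 0.88 on the log2 scale in Miapaca and −1.12 in BXPC3. With 1 array per group the difference was not tested, and in BXPC3 the gene was detected on the control array only.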

How the results depend on the processing

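Counts and medians of the siRNA comparisons moved most with the scaling. Median scaling put the median of all genes at −0.40 with the ORF siRNA, −0.46 with the 3UTR siRNA and −0.11 in BXPC3. In Miapaca the members' medians were then −0.13 (ORF) and −0.52 (3UTR), with 2 and 3 members past 2-fold. Without normalization between arrays the medians were −0.29 and −0.67, with 4 and 6 members past 2-fold, beside −0.55 and −0.61 over all genes. The mean over detected probes gave a median of 0.16 with the ORF siRNA in Miapaca. Without background correction, with an offset of 50 and with the authors' series matrix values 0 members were past 2-fold with the 3UTR siRNA and 0 in BXPC3, and COL6A3 stood at −0.82, −0.98 and −0.84. In BXPC3 it was also 0 with the mean over detected probes and with detection on both arrays. Under these same 3 settings COL12A1, COL16A1, NID2 and SPOCK1 were not called between the lines, which left 11 members higher in BXPC3. The sizes of line differences also depended on the processing. With the authors' values the fitted log2 difference was 3.47 for COL4A5, −1.47 for COL6A1 and 4.04 for PLOD2, beside 5.47, −3.09 and 5.55 in the main setting. The cause of these shifts was not tested. Where detection was needed on all 5 arrays, 0 members were called higher in Miapaca and 6 in BXPC3, since genes detected in 1 line alone left the test. Leaving out each array in turn gave 3 to 7 members higher in Miapaca and 8 to 16 in BXPC3. The 2 control arrays alone, with no test, gave 8 and 17. No member was called for the siRNA term under any setting run. No called difference between the lines and none past 2-fold changed sign. No paired analysis was possible because each group held 1 array.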
